A study of Mus musculus with 49 samples.

Results

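Transcripts for the nuclear-encoded subunits of oxidative phosphorylation were followed in mouse liver after a toxic dose of acetaminophen (APAP, paracetamol). The members are the genes whose symbol begins with Ndufa, Ndufb, Ndufc, Ndufs or Ndufv, with Uqcr, with Cox4 to Cox8, or with Atp5, taken from probe sets that the platform annotation gives a single symbol. This rule found 170 probe sets of 86 genes among 45101 probe sets and 18194 genes. Of these, 51 probe sets of 45 genes had a value on every array, among 8137 probe sets and 5976 genes. The 86 genes comprise 34 of complex I, 8 of complex III, 10 of complex IV and 17 of complex V. The other 17 that match by name are 8 complex I assembly factors, 8 tissue isoforms of complex IV subunits and the supercomplex factor Cox7a2l. The symbol rule holds no gene of complex II and none of the subunits encoded in mitochondrial DNA.

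All mice were male C57BL6/N. The treated mice were starved overnight, received 1 intraperitoneal dose of 300 mg/kg APAP in phosphate-buffered saline and then fed freely, and livers were taken at 9 times, the hours 1, 6 and 12 and the days 1, 2, 4, 6, 8 and 16 after the dose. The control livers are labelled as untreated, and the labels do not say whether these mice were starved or given the saline. There were 5 arrays per group, except 4 at 6 h. Complete tables exist for 25 arrays, those of 1 h and 12 h and of days 1, 2 and 16, while the others hold 8137 or 8138 probe sets, so comparisons with control cover 45 members and comparisons with 1 h cover 86. Whether each numbered array of a group comes from its own mouse is not stated, and the p-values reflect only array-to-array spread, which may be technical.

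Oxidative phosphorylation is the last stage of respiration, carried out in the inner mitochondrial membrane. Complex I takes electrons from NADH and passes them to ubiquinone, complex III hands them to cytochrome c, and complex IV reduces oxygen. All 3 complexes pump protons, and complex V, the ATP synthase, lets the protons flow back through a ring of c subunits while its F1 head makes ATP. Most subunits are encoded in the nucleus and imported. The hepatocyte is rich in mitochondria, and mitochondria are a known target of the reactive APAP metabolite, which is made mainly by hepatocytes around the central vein.

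Values are log2 expression after robust multi-array averaging, and each difference is given ± its standard error (SE) in the limma fit. A gene was called when its Benjamini-Hochberg adjusted p over all genes of the comparison was under 0.05. The array means lay between 6.03 and 6.33. Within an array the SD of the values was 2.40 to 2.48 on 46 arrays and 2.25 to 2.27 (to 2 decimals) on 3 arrays, the replicates numbered 3 of control and of 1 h and the one numbered 4 of 16 d. These 3 arrays also read low for most members, so results that change without them are given both ways. The members are bright: 38 of the 45 and 67 of the 86 lay in the top 10% of all genes by mean level. Hepatocyte genes were high on every array, with the mean of 18 such genes between 12.81 and 13.11 on the 25 complete arrays.

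On the deposited scale, subunit transcripts were near control at 1 h and 6 h, lower at 12 h, lowest at 1 d and closer to control from 2 d on. The order of 1 d and 2 d depended on the scale, and with arrays centred on their median the 2 d values were as low as those of 1 d. At 1 d, 20 of the 45 members measured on all arrays were called lower than control and 0 higher, where 13.4% of all 5976 genes were called lower and 16.2% higher. The 20 are 44.4% of the members. The arrays of the 2 groups did not overlap for 7 members that were lower and 1 that was higher, where this held for 6.24% and 9.57% of all genes. The median difference of the 45 was -0.21, that is 86.4% of the control level, beside -0.03 over all genes. At 12 h, 8 of 45 were called lower (12.2% of all genes) and 0 higher (11.5%), with a median of -0.13. At 2 d, 5 were lower (12.7%) and 1 higher (19.9%), with a median of -0.10. The shares of members called lower, 17.8% at 12 h and 11.1% at 2 d, lay near those of all genes on this scale. Arrays of bulk liver cannot tell fewer cells of a type from less RNA per cell.

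These counts moved with single arrays and with the fit. The count at 1 d was 13 without control replicate 2, 28 without control replicate 3 and 6 when only the control and 1 d arrays were fitted. The count at 12 h was 15 without the 3 narrow arrays, 5 without 12 h replicate 2, 4 without 12 h replicate 3, 5 without control replicate 2, 13 without control replicate 3 and 1 with the compared groups alone. At 2 d the total of 6 became 2 without 2 d replicate 5, 11 without control replicate 3, 15 without the 3 narrow arrays and 0 with the compared groups alone. With array weights it was 14, with quantile normalization 12, centred on the array median 34 and centred on ribosomal protein genes 35. Over all 5976 genes the centrings gave 757 higher and 2739 lower, and 743 higher and 2822 lower. Quantile normalization gave 1013 higher and 1463 lower, beside 1189 and 759 on the deposited scale. For the other settings the calls over all genes are not given here.

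The scale of the arrays sets how large the fall is and when it ends. With each array centred on its median, the median of all genes at 1 d against control moved from -0.03 to -0.15, and that of the members from -0.21 to -0.33, with 33 of 45 called lower. Of all 5976 genes 1424 were then lower and 760 higher. Centred on the cytosolic ribosomal protein genes, the medians were -0.32 for all genes and -0.51 for the members, and 42 of 45 were called lower. The split of all calls moved from 969 higher and 803 lower to 523 higher and 3045 lower. At 1 d against 1 h the same centring moved the median of all genes from -0.07 to -0.48, that of the members from -0.20 to -0.61, and the split of all genes from 2119 higher and 2120 lower to 902 higher and 12181 lower. At 2 d against control, centring on the array median moved the median of all genes from -0.03 to -0.29 and that of the members from -0.10 to -0.36, where it was -0.33 at 1 d. On that scale 34 of 45 members and 2739 of all 5976 genes were called lower at 2 d. The complex IV median was then -0.36 at 2 d and -0.30 at 1 d. Centred on ribosomal protein genes the medians at 2 d were -0.29 for all genes and -0.36 for the members, above the -0.51 of 1 d. Centring moves every gene of an array by the same amount. The gap between the median of the members and that of all genes is therefore fixed under these scalings and is no test of them.

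On single arrays the mean of the 19 complex I members lay 0.20 to 0.37 below the control mean at 1 d, being -0.37 on the lowest array, -0.33 on the median one and -0.20 on the highest. The control arrays ranged from -0.36 to 0.16, the low value being replicate 3 alone and the next 0.05 above the control mean. For the 7 complex IV members the 1 d arrays ran from -0.22 to -0.09 and the control arrays from -0.11 to 0.08. The 12 complex V members ran from -0.23 to -0.12 at 1 d and from -0.18 to 0.13 in control. Control replicate 3 was the array that overlapped the 1 d arrays in each of the 3 complexes, and the 4 other control arrays lay above them.

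**Figure D1:**
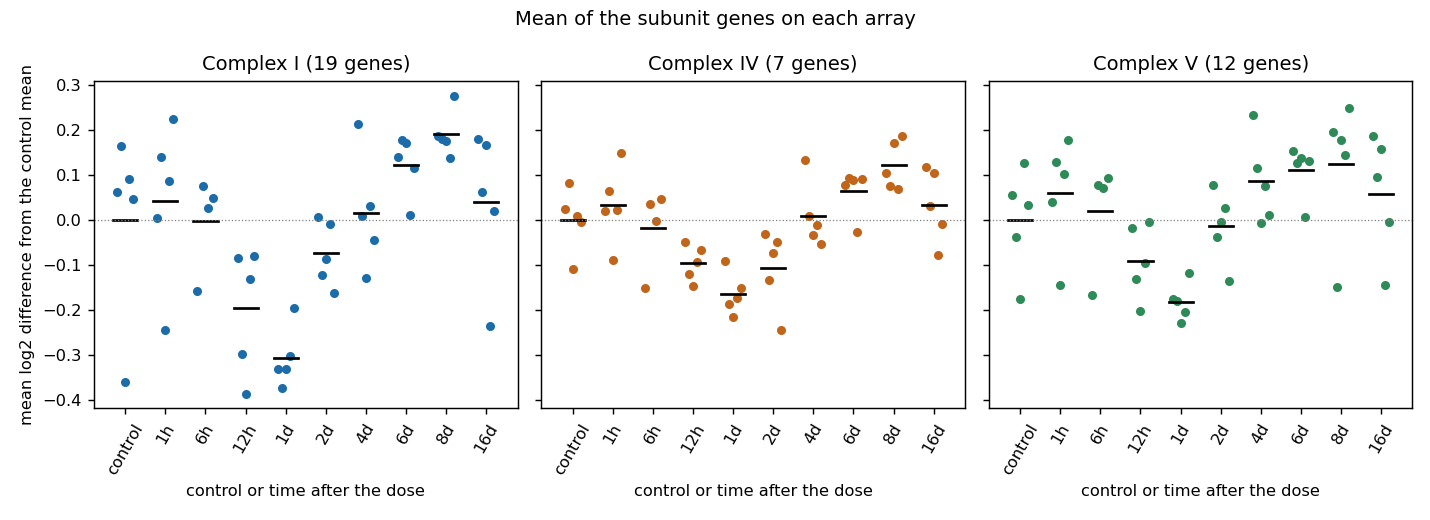
Mean log2 difference from the control mean (y axis) of the members of complexes I, IV and V on each array (points) and its group mean (bar), for control and 9 times after the dose. The means of all 3 complexes on the deposited scale are lowest at 1 d, at -0.31, -0.16 and -0.18, and control replicate 3 lies at -0.36 for complex I.

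**Figure D2:**
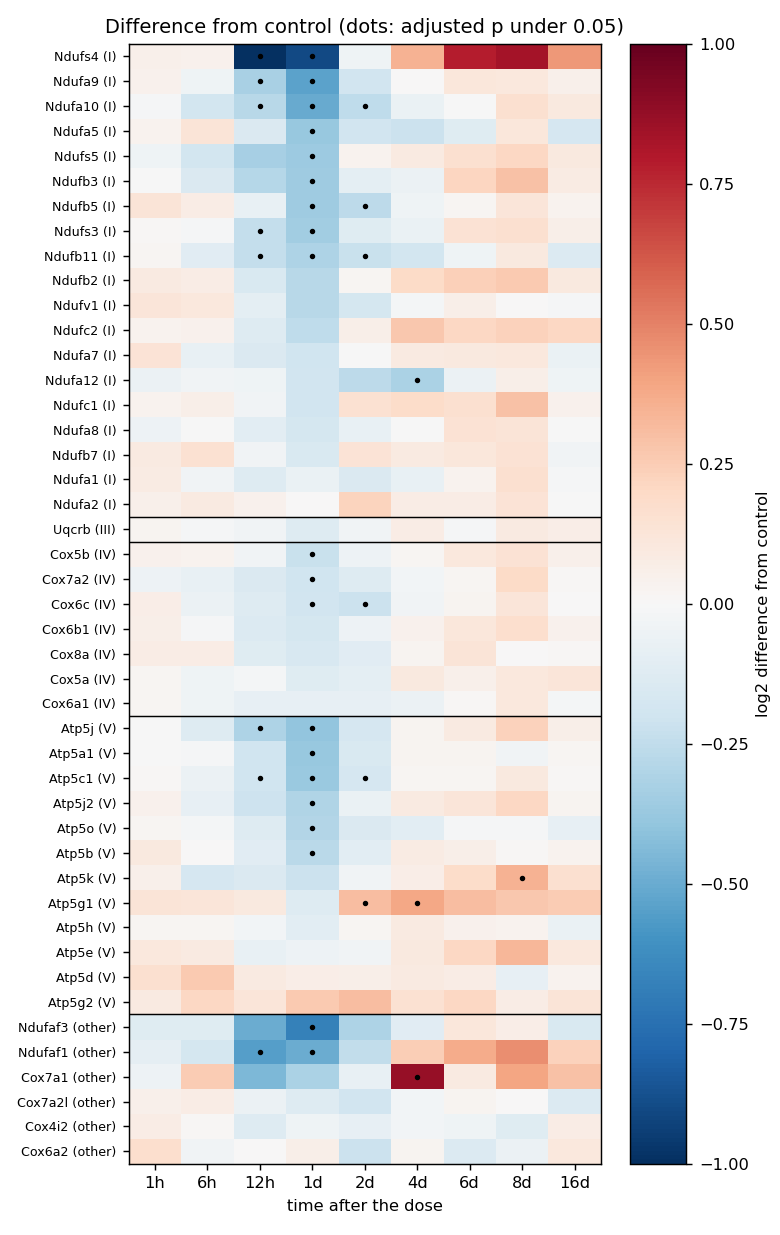
Log2 difference from control (colour) of the 45 members measured on all arrays (rows, by complex) at 9 times after the dose (columns), with a dot where the adjusted p was under 0.05. On the deposited scale called falls gather at 12 h and 1 d, and the called rises are Atp5g1 at 2 d and 4 d, Cox7a1 at 4 d and Atp5k at 8 d.

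With the 1 h livers as reference, all 86 members could be compared. The 1 h mice had been starved overnight and dosed 1 h before, while the later mice had had longer to feed. Feeding and time after the dose cannot be told apart in these comparisons. At 1 d, 31 of 86 were called lower and 0 higher, where 11.7% of the 18194 genes were called lower and 11.6% higher, so 36.0% of the members were lower. The 1 d and 1 h arrays did not overlap for 19 members, all lower, where this held for 7.33% of all genes. The median was -0.20 over the members and -0.07 over all genes. At 12 h, 13 were lower (10.3% of all genes) and 1 higher (8.29%). At 2 d, 11 were lower and 1 higher, so 12.8% of the members were lower beside 13.3% of all genes (14.8% higher). The comparisons of 1 d with control and with 1 h share the 1 d arrays and are no independent repeats. The count at 1 d was 26 to 42 on leaving out each array in turn and 47 without the 3 narrow arrays. The 14 calls at 12 h became 6 and 5 without 12 h replicate 2 or 3, 8, 7, 9 and 7 without 1 h replicate 1, 2, 4 or 5, and 29 without 1 h replicate 3. The 12 calls at 2 d became 7 without 2 d replicate 5, 23 without the 3 narrow arrays, 35 with arrays centred on their median and 75 centred on ribosomal protein genes. Those at 12 h became 8 and 74 under the same centrings, and the 31 at 1 d became 36 and 82. Over all 18194 genes, centring on the array median gave 2266 higher and 4996 lower at 2 d. At 12 h it gave 1761 and 1599, and at 1 d 2136 and 2434. Centring on ribosomal protein genes gave 1426 and 11035 at 2 d and 962 and 9022 at 12 h. At 1 d it gave 902 and 12181. For the counts without the 3 narrow arrays or without single arrays, the calls over all genes are not given here.

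**Figure D3:**
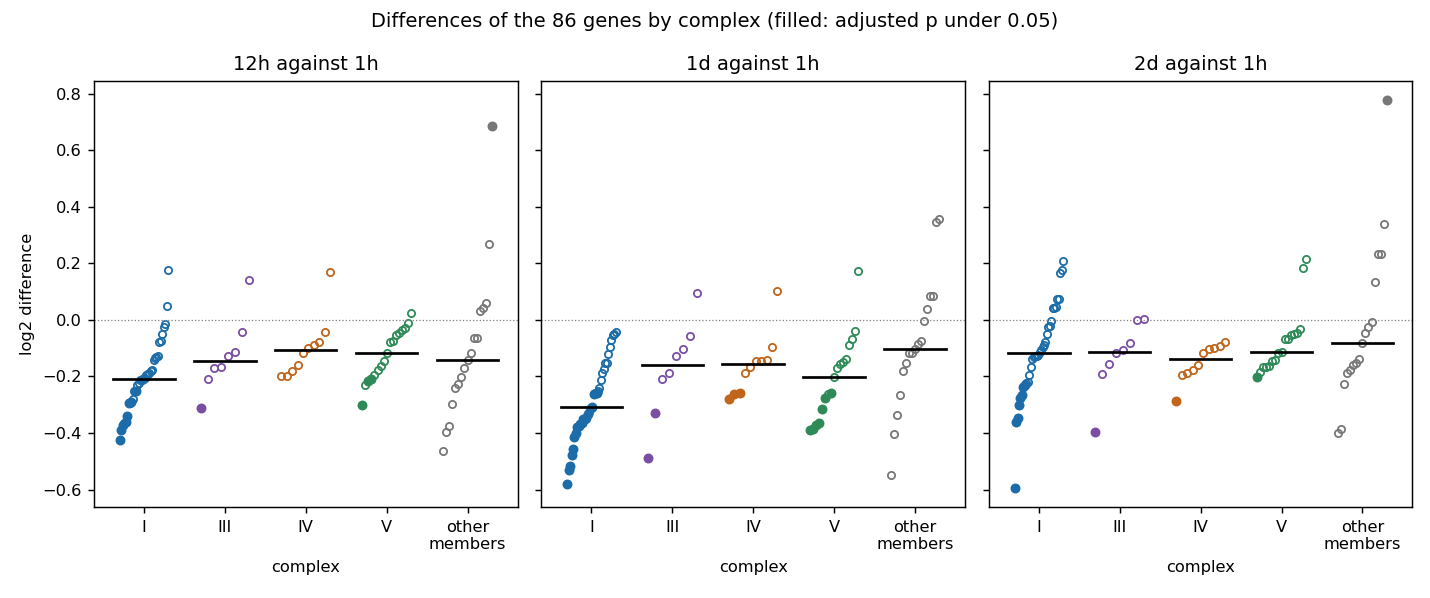
Log2 difference from 1 h (y axis) of each of the 86 members at 12 h, 1 d and 2 d, by complex (x axis). Filled points have an adjusted p under 0.05 and bars are medians. At 1 d all 34 complex I members lie below 0, with a median of -0.31.

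Complex I had the largest share of genes called lower against 1 h. There, 19 of its 34 genes were called lower at 1 d and all 34 differences were below 0, with a median of -0.31 (80.7% of the 1 h level). Against control, 9 of 19 were lower, with a median of -0.28. The largest fall of the complex against 1 h was that of Ndufa9, an accessory subunit at the joint between the matrix arm and the membrane arm. Against control it followed that of Ndufs4, which was measured there on a dim probe set. Ndufa9 read 10.23, 10.32, 10.07, 10.30 and 10.20 on the control arrays and 9.70, 9.60, 9.62, 9.71 and 9.80 on the 1 d arrays. Every 1 d array lay below every control array. The difference was -0.54 ± 0.08 (adjusted p = 4.94e-07), which is 69.0% of control, and no array left out ended the call. At 12 h it was -0.33 ± 0.08 (adjusted p = 0.00137) and at 2 d -0.19 ± 0.08 (adjusted p = 0.0521).

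Of the 6 core subunits measured, most of which carry the flavin or iron-sulfur clusters, 5 were lower than at 1 h at 1 d. Ndufs1 and Ndufv1 belong to the NADH-oxidising tip, and Ndufs7 holds the last cluster before ubiquinone. Ndufs7 read 10.60, 10.75, 10.28, 10.53 and 10.80 at 1 h, 10.09, 10.07, 10.19, 9.79 and 10.15 at 1 d, and 10.16, 10.13, 9.93, 10.09 and 9.67 at 2 d. No array of 1 d or 2 d reached the lowest array of 1 h. The differences were -0.53 ± 0.15 at 1 d (adjusted p = 0.0121) and -0.59 ± 0.15 at 2 d (adjusted p = 0.00498). At 16 d it read 10.53, 10.28, 10.39, 9.99 and 10.14, and the difference from 1 h was -0.32 (unadjusted p = 0.0426, adjusted p = 0.401).

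Ndufs1 fell by 0.52 ± 0.13 at 1 d (adjusted p = 0.00453), although its arrays overlapped those of 1 h. Its 1 h arrays read 9.65, 9.94, 9.36, 9.75 and 9.80 and its 1 d arrays 8.95, 9.14, 9.45, 9.16 and 9.22, the overlap coming from 1 h replicate 3 and 1 d replicate 3. By 2 d Ndufs1 was at -0.08 ± 0.13 (adjusted p = 0.658). Ndufv1, which binds NADH, fell by 0.40 ± 0.09 at 1 d (adjusted p = 0.00228) and by 0.30 ± 0.09 at 2 d (adjusted p = 0.0160), the call at 2 d being lost without 2 d replicate 5. Against control Ndufv1 was at -0.27 at 1 d and at -0.18 at 2 d, neither called. Ndufs3 fell by 0.36 ± 0.09 against 1 h (adjusted p = 0.00541) and by 0.35 ± 0.09 against control (adjusted p = 0.00171). Ndufv2 was at -0.26 ± 0.09 (adjusted p = 0.0344), a call that ended on leaving out any of 6 arrays (1 d replicates 1, 3 and 4, 1 h replicates 2, 4 and 5). Ndufs8 was the core subunit that missed the threshold, at -0.26 ± 0.10 (adjusted p = 0.0615).

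Among the 28 accessory subunits of complex I, 14 were lower at 1 d. Ndufb5, of the membrane arm, read 11.44, 11.55, 11.26, 11.55 and 11.64 at 1 h and 11.03, 11.06, 10.97, 11.01 and 11.07 at 1 d. The groups did not overlap, and the difference was -0.46 ± 0.08 (adjusted p = 0.000283). Ndufb5 stayed lower at 2 d, by -0.36 ± 0.08 (adjusted p = 0.00245). Ndufb8, also of the membrane arm, fell by 0.35 ± 0.09 at 1 d (adjusted p = 0.00661) and was at -0.20 ± 0.09 at 2 d (adjusted p = 0.104). Ndufb10, named after its value was seen, fell by 0.48 ± 0.12 at 1 d (adjusted p = 0.00374) and was at -0.11 ± 0.12 at 2 d. Others were not called: Ndufab1, the mitochondrial acyl carrier protein, was at -0.09 ± 0.09 at 1 d (adjusted p = 0.454), Ndufc1 at -0.05 ± 0.10 and Ndufa2 at -0.05 ± 0.08. At 2 d Ndufc1 and Ndufab1 had the highest differences of complex I, 0.21 ± 0.10 and 0.18 ± 0.09, neither called (adjusted p = 0.127 and 0.126).

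The probe set matters for some complex I genes. Of the 45 members, 27 were represented by the same probe set with both references and 18 by another one. Ndufs4 fell by 0.90 ± 0.31 against control at 1 d (adjusted p = 0.0211) on the probe set measured on all arrays, whose mean level was 5.80. Its brightest probe set, with a mean level of 9.45, gave -0.15 ± 0.11 against 1 h (adjusted p = 0.320). The call against control was lost without 1 d replicate 1, control replicate 1 or control replicate 2. For Ndufa10, named here after its values were seen, the same pair was -0.51 ± 0.09 against control (adjusted p = 1.21e-05, mean level 5.48) and -0.25 ± 0.09 against 1 h (adjusted p = 0.0520, mean level 10.92). No member had probe sets called in opposite directions.

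In complex III, 2 of 8 genes were called lower than 1 h at 1 d, with a median of -0.16, and 7 of 8 differences lay below 0. Uqcrfs1 is the Rieske iron-sulfur protein, the electron carrier of the complex. It read 11.55, 11.58, 11.37, 11.58 and 11.65 at 1 h and 11.19, 11.14, 11.26, 11.19 and 11.31 at 1 d. The groups did not overlap, and the fall was 0.33 ± 0.08 (adjusted p = 0.00508). Uqcr11, a small accessory subunit, fell by 0.49 ± 0.10 (adjusted p = 0.00111). It read 11.52, 11.61, 11.14, 11.48 and 11.62 at 1 h and 11.16, 10.91, 10.81, 10.96 and 11.07 at 1 d, with 1 h replicate 3 just under the highest 1 d array. Uqcr11 was still lower at 2 d, by -0.40 ± 0.10 (adjusted p = 0.00608). The core proteins Uqcrc1 and Uqcrc2 were at -0.19 ± 0.08 and -0.21 ± 0.09, short of a call (adjusted p = 0.0916 and 0.0805). Uqcrh, the hinge protein, was at -0.06 ± 0.10 and Uqcr10 at 0.10 ± 0.12. Uqcrb was the complex III gene with values on all arrays and was at -0.13 ± 0.09 against control at 1 d (adjusted p = 0.312).

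In complex IV, 3 of 10 genes were lower than 1 h at 1 d (median -0.16) and 3 of 7 were lower than control (median -0.18). Cox6c, a regulatory subunit found in all tissues, read 12.03, 12.05, 11.85, 12.04 and 12.11 at 1 h, 11.86, 11.73, 11.67, 11.75 and 11.78 at 1 d, and 11.74, 11.77, 11.75, 11.68 and 11.72 at 2 d. The 2 d arrays all lay below the 1 h arrays, and the 1 d arrays overlapped them through 1 h replicate 3. The differences were -0.26 ± 0.07 at 1 d (adjusted p = 0.0112) and -0.29 ± 0.07 at 2 d (adjusted p = 0.00498). A second, dimmer probe set of Cox6c was at -0.06 ± 0.10 at 1 d, and with the mean of the probe sets the 1 d call was lost. Cox5b fell by 0.26 ± 0.08 and Cox8a by 0.28 ± 0.08 (adjusted p = 0.0136 and 0.0168). The Cox5b call was lost with the mean of its probe sets, and the Cox8a call without 1 d replicate 2 or without cross-hybridising probe sets. Against control at 1 d, each on another probe set, Cox5b was called at -0.23 (adjusted p = 0.0227) and Cox8a was at -0.16 without a call.

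Cox4i1, a subunit needed for assembly of the complex, was at -0.17 ± 0.07 at 1 d, Cox5a at -0.14 ± 0.08, Cox7a2 at -0.14 ± 0.07 and Cox6a1 at -0.09 ± 0.07, and Ndufa4, now counted with complex IV, at -0.14 ± 0.08. None of these was called against 1 h (adjusted p from 0.0998 to 0.311). Another probe set of Cox6a1, with a mean level of 11.79, was at -0.22 ± 0.08 (adjusted p = 0.0481 in the limma fit of every probe set). Against control Cox7a2 was called at -0.20 ± 0.07 (adjusted p = 0.0341), a call lost on leaving out any of 7 arrays (1 d replicates 2 to 5, control replicates 1, 2 and 4). Cox6b1 was at -0.18 ± 0.09 (adjusted p = 0.113).

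In complex V the called falls lay in the F1 head, the stalk and the other membrane subunits. At 1 d, 7 of 17 genes were lower than 1 h, with a median of -0.20, and 6 of 12 were lower than control, with a median of -0.24. By part, 3 of 5 F1 genes, 2 of 4 stalk genes, 2 of 5 other membrane genes and 0 of 3 c-ring genes were called lower than 1 h. For the c ring the count at an unadjusted p under 0.05 was 1 of 3. Atp5c1, the central shaft of F1, read 11.98, 12.22, 11.90, 12.03 and 11.97 in control and 11.67, 11.66, 11.57, 11.67 and 11.67 at 1 d. All 1 d arrays lay below all control arrays, by -0.37 ± 0.07 (adjusted p = 1.62e-05). This probe set is of a class that may cross-hybridise, and without such probe sets the remaining one, with a mean level of 4.48, gave -0.05 ± 0.17 against 1 h. With the mean of both probe sets the call was lost.

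The catalytic subunit Atp5b read 12.59, 12.61, 12.52, 12.64 and 12.54 at 1 h and 12.19, 12.26, 12.28, 12.13 and 12.21 at 1 d. The groups did not overlap, and the fall was 0.36 ± 0.07 (adjusted p = 0.000256), followed by -0.20 ± 0.07 at 2 d (adjusted p = 0.0255). The 2 d call ended without 1 h replicate 4, 2 d replicate 2 or 2 d replicate 5. Against control Atp5b was called at 1 d, at -0.27 (adjusted p = 0.0114), and was at -0.11 at 2 d without a call. Atp5a1, the other subunit of the catalytic ring, fell by 0.37 ± 0.07 at 1 d (adjusted p = 0.000548). In the stalk that holds F1 still, Atp5j fell by 0.39 ± 0.09 (adjusted p = 0.00281) and Atp5o by 0.31 ± 0.08 (adjusted p = 0.00702). For both genes every 1 d array lay below every 1 h array, and the call for Atp5o was lost with the mean of its probe sets. Atp5d, of the F1 head, was at -0.14 ± 0.07 (adjusted p = 0.155). With the 1 d and 1 h groups alone, the named calls lost at 1 d were those of Ndufv2, Cox5b, Cox6c and Atp5k (adjusted p from 0.0689 to 0.0931). With the 1 d and control groups alone they were those of Ndufs3, Ndufs4, Cox5b, Cox6c, Cox7a2, Atp5b and Atp5o (adjusted p from 0.0599 to 0.228).

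The c ring is encoded by Atp5g1, Atp5g2 and Atp5g3, whose mature proteins are the same, so probes of related sequence may be shared. Atp5g2 read 10.42, 9.91, 10.05, 10.52 and 10.48 in control and 10.53, 10.52, 10.55, 10.56 and 10.54 at 1 d. The 1 d arrays lay at or above the highest control array, yet the difference of 0.27 ± 0.13 was not called (adjusted p = 0.137). Atp5g1 read 10.91, 10.67, 10.51, 10.88 and 10.91 in control, 10.48, 10.67, 10.67, 10.62 and 10.78 at 1 d, and 11.39, 11.21, 11.10, 11.08 and 11.05 at 4 d. It was not called at 1 d (-0.13 ± 0.11, adjusted p = 0.393) and rose at 4 d, with every array above control, by 0.39 ± 0.11 (adjusted p = 0.00928). A rise of 0.31 ± 0.11 at 2 d (adjusted p = 0.0246) was lost without 2 d replicate 1, 2 d replicate 3, control replicate 2 or control replicate 3. With arrays centred on their median it was 0.05, and centred on ribosomal protein genes 0.04. At 1 d against 1 h Atp5g1 was at -0.26 ± 0.11 and Atp5g2 at 0.17 ± 0.11, neither called. Atp5g3 was at -0.09 ± 0.07 at 1 d against 1 h and at -0.05 ± 0.07 at 2 d (adjusted p = 0.396 and 0.595).

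**Figure D4:**
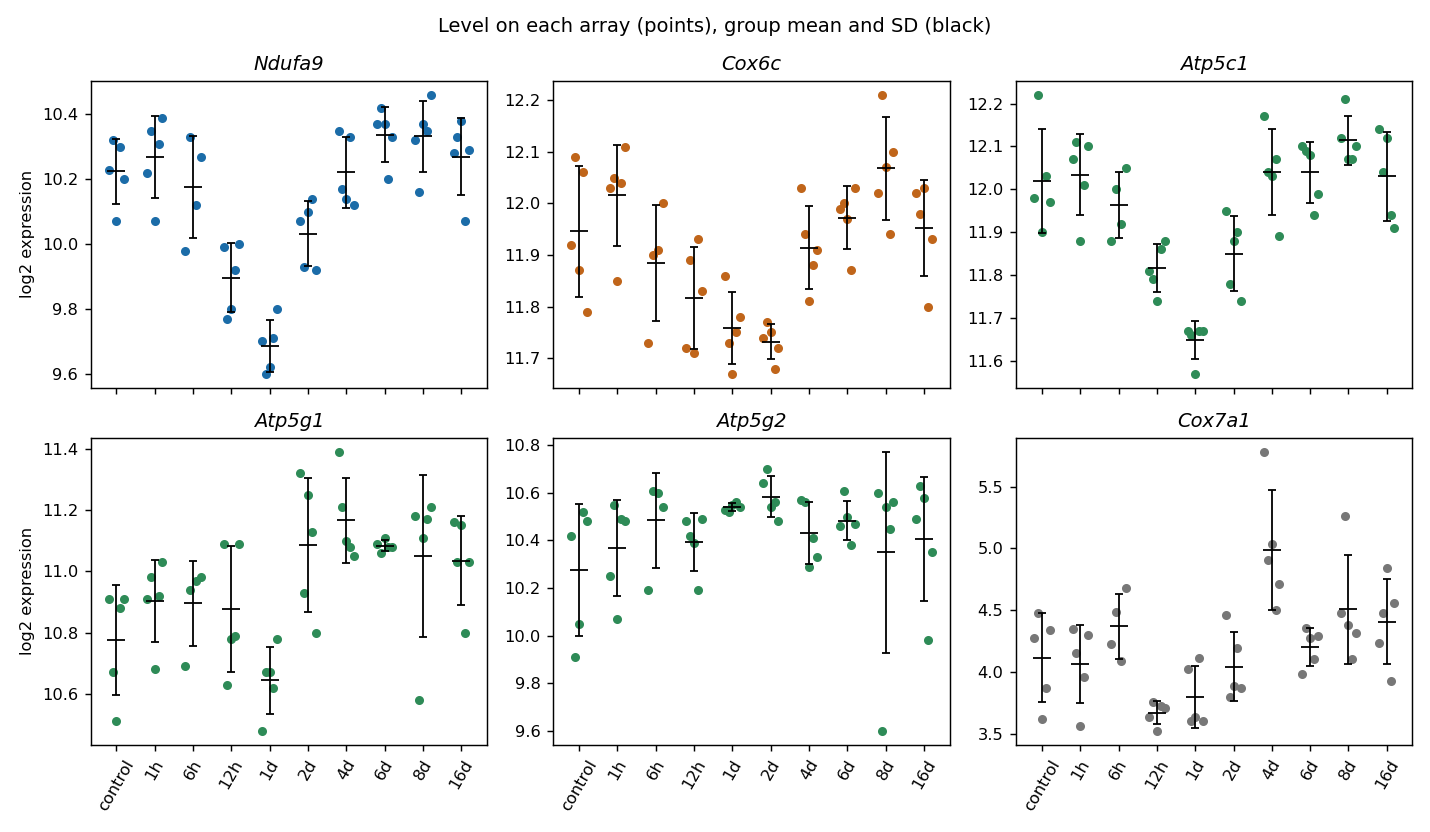
Log2 expression (y axis) of 6 members on each array (points), with group mean and SD (black), for control and 9 times after the dose. Ndufa9 and Atp5c1 are lowest at 1 d, Cox6c is lowest at 2 d, Atp5g1 is highest at 4 d, Atp5g2 has 1 low array at 8 d, and Cox7a1 is highest at 4 d.

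Side by side, the share called lower at 1 d against 1 h was 55.9% in complex I, 41.2% in complex V, 30.0% in complex IV and 25% in complex III. Against control complex V had the larger share, with 6 of 12 genes in complex V, 9 of 19 (47.4%) in complex I and 3 of 7 (42.9%) in complex IV called lower, and complex III had 1 gene measured. The complexes were also compared within each array, where a shift of the whole array cancels in part. Relative to 1 h, the complex I mean lay below the complex V mean on 5 of 5 arrays at 12 h, 1 d and 2 d, with medians of -0.06, -0.11 and -0.04. It lay below the complex IV mean on 5 of 5 arrays at 1 d, with a median of -0.10, and on 1 of 5 at 2 d, with a median of 0.05. Against complex III it was lower on 5 of 5 arrays at 1 d and on 1 of 5 at 2 d. With control as reference complex I was also below complex V on 5 of 5 arrays at 4 d. Those differences, -0.121 to -0.021, lay within the range of the control arrays, -0.184 to 0.203. At 1 h itself, in the comparison with 1 h, complex I was below complex V on 2 of 5 arrays and below complex IV on 2 of 5. The differences from complex V ran from -0.063 to 0.034 at 1 h. Those of 2 d, -0.048 to -0.02, lay within that range. Those of 12 h (-0.161 to -0.031) and 1 d (-0.116 to -0.044) overlapped it. Against complex IV the 1 d arrays (-0.235 to -0.05) overlapped those of 1 h (-0.093 to 0.06). Against complex III the 1 d arrays (-0.216 to -0.062) lay below those of 1 h (-0.026 to 0.024). These are counts of arrays without a test, since the genes of a complex are no replicates.

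At 2 d the medians of the complexes lay close together. Those against 1 h were -0.12 in complex I, -0.11 in complex III, -0.14 in complex IV and -0.11 in complex V, beside -0.08 over all genes. Centred on the array median they were -0.23, -0.23, -0.25 and -0.23, beside -0.19 over all genes. On the deposited scale complex I had 8 of 34 genes lower than 1 h (23.5%) and complex V 1 of 17 (5.88%), beside 13.3% of all genes. The members lower at 2 d than at 16 d numbered 9 of 86 (8.54% of all genes were lower), and 0 were higher (12.7%). These were Ndufa6, Ndufb5, Ndufa9, Ndufv3, Uqcr11, Uqcrc1, Cox6c, Cox5a and the dim testis isoform Cox7b2, of which Ndufa6, Ndufv3 and Cox7b2 are named after their values were seen. Uqcr11 was lower by 0.38 ± 0.10 (adjusted p = 0.00936) with no overlap, at 11.23, 11.10, 11.08, 11.01 and 10.96 at 2 d against 11.61, 11.51, 11.57, 11.31 and 11.31 at 16 d. The 9 calls became 4, 4 and 3 without 16 d replicate 1, 2 or 3, 5, 5 and 3 without 2 d replicate 2, 3 or 5, and 3 with the compared groups alone. Without the 3 narrow arrays there were 16, centred on the array median 27 and centred on ribosomal protein genes 74. Over all 18194 genes these centrings gave 1877 higher and 3281 lower, and 1242 higher and 10087 lower.

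At 1 h and 6 h limma called 0 of the 45 members against control, where 0.636% and 5.67% of all genes were called. At an unadjusted p under 0.05 the number was also 0 at both times. Without the 3 narrow arrays 1 member was called at 6 h. At 4 d, 2 members were higher (9.99% of all genes) and 1 lower (6.54%), at 8 d 1 was higher (5.19%) and 0 lower (2.81%), and at 6 d and 16 d none was called (8.53% and 6.66% of all genes in either direction). The numbers with an unadjusted p under 0.05 were 3 at 6 d, 13 at 8 d and 1 at 16 d, and with array weights the calls were 2 at 6 d, 7 at 8 d and 1 at 16 d. The shares of all genes under these measures are not given here. The median of the 45 went from 0.03 at 4 d to 0.09 at 6 d, 0.12 at 8 d and 0.04 at 16 d, with 40 of 45 differences above 0 at 8 d. Over all genes the medians at these times were -0.024, 0.01, 0.005 and 0.003. Centred on the array median that of the 45 was -0.07, 0.02, 0.06 and 0.01, beside -0.12, -0.06, -0.06 and -0.03 over all genes. Without control replicate 3 the complex I median went from 0.11 to 0.03 at 6 d and from 0.14 to 0.07 at 8 d. Against 1 h, limma called 0 of 86 at 16 d (2.78% of all genes), with 3 at an unadjusted p under 0.05.

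The 8 d call was Atp5k, subunit e of the membrane part, which read 11.50, 11.89, 11.59, 11.44 and 11.68 at 8 d and 11.18, 11.37, 11.11, 11.47 and 11.21 in control. Only 8 d replicate 4 lay within the control range, and the rise was 0.35 ± 0.09 (adjusted p = 0.00915). The count of 1 at 8 d became 3 without 8 d replicate 2, 6 without control replicate 2, 2 without control replicate 4 and 0 with the compared groups alone. The 4 d fall was Ndufa12, named after its value was seen, at -0.31 ± 0.11 (adjusted p = 0.0393).

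Tissue isoforms of complex IV replace the common ones in muscle, fat, lung or testis. Of the 8 measured none was called at 12 h, 1 d or 2 d against 1 h. At an unadjusted p under 0.05, 1, 1 and 2 of the 8 passed at 12 h, 1 d and 2 d. Against control the called isoform was Cox7a1, of heart, skeletal muscle and brown fat, at 4 d. It read 4.28, 4.48, 3.62, 3.87 and 4.34 in control and 5.78, 4.91, 5.04, 4.5 and 4.71 at 4 d. Every 4 d array lay above every control array, by 0.87 ± 0.20 (adjusted p = 0.00116), and the call held with each array left out. The probe set is dim: its mean over the arrays, 4.22, lay under the level of 4.45 that marks the lowest 25% of all genes, no detection call was used here, and the filter on dim genes leaves it out. Where the control level is not above background, the difference is no measure of size. At 6 d Cox7a1 was at 0.09 ± 0.20. Of the skeletal muscle markers measured, 0 of 4 was called higher and 0 lower at 4 d, with a median difference of 0.04. Of 5 fat markers 1 was called higher, with a median of -0.02. Their part in the rise of Cox7a1 was not tested. The hypoxia-inducible Ndufa4l2 was at 0.36 ± 0.17 at 1 d against 1 h (adjusted p = 0.131), with 1 d replicate 4 at 6.76 and the other 1 d arrays between 5.37 and 5.87, and Cox4i2, the lung and hypoxia isoform, at -0.12 ± 0.13.

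The complex I assembly factors help build the complex and do not stay in it. Of the 8 measured, 0 were called at 1 d against 1 h, with a median of -0.04, and 2 had an unadjusted p under 0.05. Ndufaf4 rose at 12 h, from 8.67, 9.0, 8.67, 9.01 and 9.09 at 1 h to 9.81, 9.65, 8.98, 9.73 and 9.70. All 12 h arrays but replicate 3 lay above every 1 h array, and the rise was 0.69 ± 0.15 (adjusted p = 0.00197). At 1 d Ndufaf4 was at 0.04 ± 0.15. Ndufaf5 rose at 2 d by 0.78 ± 0.22 (adjusted p = 0.00960), reading 6.60, 5.66, 6.30, 6.53 and 6.57 against 5.47, 5.91, 4.99, 5.58 and 5.84 at 1 h. Only 2 d replicate 2 fell inside the 1 h range, and centred on ribosomal protein genes the call was lost. At 16 d Ndufaf5 was at 0.68 ± 0.22 against 1 h, without a call (adjusted p = 0.0989). Its level at 2 d lay 0.09 ± 0.22 above that of 16 d (adjusted p = 0.792). Against control at 1 d, the factors Ndufaf1 and Ndufaf3, named after their values were seen, fell by 0.49 ± 0.16 and 0.67 ± 0.22 (adjusted p = 0.0169 and 0.0161).

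Genes that work beside the complexes were counted by list at 1 d against 1 h. Of all genes, 11.7% were called lower there and 11.6% higher. Of 13 other respiratory chain and ATP transfer genes, 8 were lower and 3 higher. All 4 subunits of complex II, which feeds electrons from succinate, were lower, from Sdhb at -0.62 (adjusted p under 0.05) to Sdhc at -0.33. The electron transfer flavoprotein genes Etfa, Etfb and Etfdh, which pass on electrons from fatty acid oxidation, were at -0.62, -0.66 and -0.72. Cyc1, the cytochrome of complex III, fell by 0.35 and cytochrome c itself, Cycs, rose by 0.36. Slc25a4, an ADP/ATP carrier of muscle and other tissues, rose by 1.31 at 1 d and 2.89 at 2 d, while its relative Slc25a5 was at 0.07 and -0.03 without a call. Atpif1, the inhibitor protein of the ATP synthase, rose by 0.67 at 1 d and by 1.76 at 2 d.

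Of 37 assembly factors for any complex, 7 of them members, 4 were lower at 1 d and 0 higher, the lowest being Sco2, a copper chaperone of complex IV, at -1.08. With 11.7% of all genes lower and 11.6% higher, the share of assembly factors called lower lay near that of all genes. The tricarboxylic acid cycle, which supplies the NADH, had 5 of 15 genes lower and 0 higher, with a median of -0.26. Fh1 fell by 0.59, Ogdh by 0.53 and Suclg1 by 0.48. In contrast, 11 of 15 glycolysis genes were higher and 1 lower, Pkm by 2.85 and Aldoa by 1.10. The mitochondrial ribosome had 8 of 76 genes higher and 4 lower, with a median of 0.05, its share called higher being near that of all genes. Import and chaperone genes had 5 of 22 higher and 1 lower, Tomm20 at 0.69 and Hspe1 at 0.56. Of 49 cytosolic ribosomal protein genes 36 were higher and 0 lower, with a median of 0.42. Centred on these ribosomal genes every difference at 1 d against 1 h moves down by the same amount, the median of all genes being -0.48 in place of -0.07, and the counts of higher genes above hold for the deposited scale.

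Among 15 regulators of mitochondrial biogenesis, 2 were lower and 1 higher at 1 d against 1 h. Of all genes 11.7% were lower, near the share of these regulators, and 11.6% higher. Ppargc1b, a coactivator of mitochondrial genes, was at -2.05 and Sirt3, the mitochondrial deacetylase, at -1.34. Pprc1 rose by 0.64. The factors that bind subunit promoters were not called: Nrf1 was at 0.03, Gabpa at -0.14, Yy1 at 0.08 and Esrra at -0.10.

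**Figure D5:**
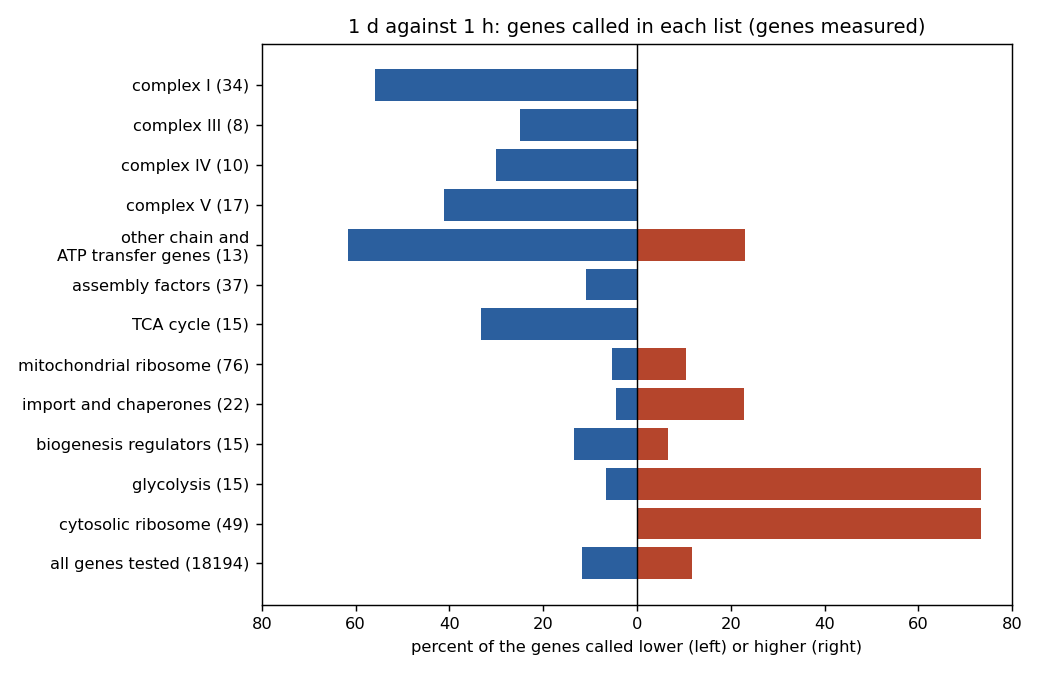
Percent of the genes of each list called lower (left bars) or higher (right bars) at 1 d against 1 h, with the number of genes measured beside each name and all 18194 genes at the bottom. Complex I and the other chain genes lie furthest to the left, and glycolysis and the cytosolic ribosome to the right.

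Markers of cell types moved at the same times. Against 1 h, 11.7% of all genes were called lower and 11.6% higher at 1 d, and 13.3% lower and 14.8% higher at 2 d. At 1 d against 1 h, 10 of 11 pericentral hepatocyte genes were lower, with a median of -1.81, and the mean level of the list lay between 7.25 and 7.83 at 1 d against 9.55 to 9.85 at 1 h. Of 8 periportal genes 5 were lower (10.17 to 10.95 against 11.12 to 11.41). Of 18 general hepatocyte genes 5 were lower and 3 higher, with a median of -0.03 (12.81 to 13.04 against 13.06 to 13.11), and albumin, Alb, was at 0.05. Of 12 monocyte and macrophage genes 7 were higher (7.52 to 8.30 against 6.83 to 7.35), and of 10 myofibroblast and matrix genes 4 were higher. At 2 d the pericentral list was still low, with 11 of 11 genes lower and a mean level of 7.41 to 8.25. At 2 d 10 of 12 macrophage genes and 10 of 10 myofibroblast genes were higher. The part of these cell types in the fall of the members was not tested.

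Over the 25 complete arrays, the genes whose levels ran most like the mean of the 37 members called there were Fmc1, an assembly factor of the ATP synthase, Mmut, the methylmalonyl-CoA mutase of mitochondria, and Lppos. Pearson's r was 0.959, 0.953 and 0.939. The points share their groups and array-wide shifts, and the values are given as a description. At 1 d against 1 h Fmc1 was at -0.75, Mmut at -0.79 and Lppos at -1.44.

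Since many members fell together, their promoters were searched for 4 short motifs known from nuclear genes of mitochondria, on both strands, in windows from 250 bases before to 50 after the start (RefSeq, mouse build GRCm38.p6). Of the 86 members 71 had an entry, with 76 windows, among 32851 windows of all genes. The NRF1 motif GCGCATGCG was in 9 member windows (11.8%, beside 1.75% of all windows), and as it overlaps itself on the other strand, both strands can match at 1 site. The ETS motif CCGGAAG, bound by GABPA, was in 17 (22.4% beside 8.86%), the YY1 motif AAGATGGCG in 7 (9.21% beside 1.40%) and the CCAAT box in 31 (40.8% beside 37.4%). The end of the ETS motif can be the start of the YY1 motif. The NRF1 motif was in 1 of 33 windows of complex I, 2 of 5 of complex III, 1 of 8 of complex IV and 3 of 18 of complex V. A match is a run of letters in the window and says nothing on binding.

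The bases before the start are shown for 6 members, 1 or more from each complex, with the motifs in capitals on whichever strand they lie, each read 5′ to 3′ along the gene. Ndufb11, Uqcr11 and Atp5j were called lower at 1 d against 1 h, and Cox6a1, Atp5g1 and Atp5g2 were not.
Ndufb11 (complex I, chrX:20617620-20617869, minus strand): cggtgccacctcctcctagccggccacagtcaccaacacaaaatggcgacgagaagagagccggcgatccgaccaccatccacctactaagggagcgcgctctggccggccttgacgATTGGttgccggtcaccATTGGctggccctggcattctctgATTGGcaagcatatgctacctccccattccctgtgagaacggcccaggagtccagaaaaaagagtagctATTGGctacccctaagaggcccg
Uqcr11 (complex III, chr10:80406822-80407071, minus strand): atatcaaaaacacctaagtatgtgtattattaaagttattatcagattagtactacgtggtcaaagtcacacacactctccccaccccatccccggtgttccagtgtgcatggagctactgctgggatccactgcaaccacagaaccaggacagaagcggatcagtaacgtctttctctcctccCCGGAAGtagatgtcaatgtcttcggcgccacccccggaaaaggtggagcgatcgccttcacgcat
Cox6a1 (complex IV, chr5:115348959-115349208, minus strand): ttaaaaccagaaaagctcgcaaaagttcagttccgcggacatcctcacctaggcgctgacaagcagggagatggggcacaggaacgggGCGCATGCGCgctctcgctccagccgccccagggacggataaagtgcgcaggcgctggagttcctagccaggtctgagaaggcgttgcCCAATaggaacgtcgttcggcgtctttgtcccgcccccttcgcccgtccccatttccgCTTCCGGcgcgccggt
Atp5j (complex V, chr16:84834977-84835226, minus strand): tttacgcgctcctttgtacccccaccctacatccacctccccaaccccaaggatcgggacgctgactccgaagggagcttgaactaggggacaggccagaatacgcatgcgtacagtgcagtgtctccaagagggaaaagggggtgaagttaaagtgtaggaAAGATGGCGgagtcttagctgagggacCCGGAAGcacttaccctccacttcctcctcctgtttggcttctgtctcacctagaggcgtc
Atp5g1 (complex V, chr11:96075632-96075881, minus strand): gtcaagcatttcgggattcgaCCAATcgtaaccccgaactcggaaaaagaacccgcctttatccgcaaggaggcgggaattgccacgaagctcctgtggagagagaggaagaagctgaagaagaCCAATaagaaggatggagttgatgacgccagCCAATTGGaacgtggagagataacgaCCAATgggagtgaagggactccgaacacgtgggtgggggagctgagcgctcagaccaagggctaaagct
Atp5g2 (complex V, chr15:102671048-102671297, minus strand): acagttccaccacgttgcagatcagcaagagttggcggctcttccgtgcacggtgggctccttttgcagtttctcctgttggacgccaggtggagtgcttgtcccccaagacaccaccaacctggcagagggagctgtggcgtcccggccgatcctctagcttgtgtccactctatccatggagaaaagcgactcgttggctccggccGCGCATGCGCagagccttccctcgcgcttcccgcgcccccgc
Before the start, Cox6a1 and Atp5g2 hold the NRF1 motif, Uqcr11, Cox6a1 and Atp5j the ETS motif, Atp5j the YY1 motif, and Ndufb11, Cox6a1 and Atp5g1 the CCAAT box. Uqcr11 also has an NRF1 motif in its searched window, on the other strand. That site begins 5 bases before the start and runs past it, so it is not marked above. Among these 6 the CCAAT box is found in genes with and without a called fall, as is the NRF1 motif with the site of Uqcr11 counted. For the ETS motif this depends on the probe set of Cox6a1, since another of its probe sets was called lower at 1 d. The members shown were chosen after their values were seen.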

How the data were processed

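The liver RNA of 49 arrays (Affymetrix Mouse Genome) was summarised by the authors to log2 values by RMA with oligo 1.52.0, per the submitters' processing notes, and these deposited log2 values were used as they are. The settings of background correction, normalization and summary were not given in the sources used here. Array values carry no count, so the number of arrays limits the precision. Each gene was represented by its probe set with the highest mean, among those the platform annotation gives 1 symbol. The fits were made with limma 3.58.1 in R 4.3.3 (lmFit, eBayes, Benjamini-Hochberg adjusted p over all genes): one of all 49 arrays and 5976 genes for 9 times against control, and one of the 25 complete arrays and 18194 genes for times against 1 h and 2 d against 16 d. All p-values without another name are from these fits, which were tested on simulated data. Counts and figures were made with Python 3.11.15, pandas 2.3.3 and matplotlib 3.10.9.

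The members, lists and tests were chosen with earlier results of these data known. Named members are a fixed panel of subunits, the 2 lowest and 2 highest of each complex at 1 d against control and at 2 d against 1 h, every called rise, and members whose probe sets were called in opposite directions. The 3 genes most correlated with the called members are named once, and other names are marked as chosen after their values were seen. Alternatives were array weights, other scalings, probe set rules, a filter on dim genes, a replicate block, the compared groups alone and each array left out. The 10 probe sets with several symbols of which 1 matches were left out.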

Additional observations from a re-analysis of the deposited data

Results flagged for a closer look

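Within each group of 4 or 5 arrays the highest or lowest array was set against the others, over 510 groups of complex means and named members. In 43 of them 1 array stood apart by more than the 95% critical value of Dixon's ratio. Chance gives this in about 1 in 20 groups, and the groups share their arrays. On the 8 d array of replicate 2 this was the mean of the complex V genes at -0.15 (nearest other array 0.14), Ndufv1 at 10.06 (10.74), Cox8a at 10.31 (11.25), Atp5a1 at 11.48 (12.18), Atp5b at 11.96 (12.56), Atp5g1 at 10.58 (11.11), Atp5g2 at 9.60 (10.45), Atp5d at 9.94 (11.26). On the 2 d array of replicate 5 this was Cox5a at 11.83 (nearest other array 12.11), Cox6b1 at 11.10 (11.40), Ndufv2 at 10.83, Ndufb8 at 10.63 (10.90), Cox6b1 at 11.87 (12.05), Ndufc1 at 10.90 (11.12). On the 6 d array of replicate 4 this was the mean of the complex IV genes at -0.027 (nearest other array 0.078), the mean of the complex V genes at 0.006 (0.13), the mean of the subunits of all complexes at 0.00 (0.11), Cox6a1 at 13.16 (13.26), Atp5j at 11.77 (11.90). On the 6 h array of replicate 1 this was the mean of the complex V genes at -0.17 (nearest other array 0.071), the mean of the subunits of all complexes at -0.16 (0.031), Atp5g1 at 10.69 (10.94), Ndufs4 at 5.18 (5.91), Atp5j at 11.46 (11.72). On the control array of replicate 3 this was the mean of the complex I genes at -0.36 (nearest other array 0.045), the mean of the subunits of all complexes at -0.25 (0.033), Cox7a2l at 9.45 (9.89), Ndufc1 at 9.94 (10.35). On the 16 d array of replicate 4 this was Ndufv1 at 10.50 (nearest other array 10.70), Ndufs4 at 5.26 (6.18), Uqcrc2 at 10.83 (11.04). On the 1 h array of replicate 3 this was Ndufv1 at 10.57 (nearest other array 10.85), Cox6c at 11.85 (12.03), Ndufb8 at 10.82 (11.10). On the 12 h array of replicate 3 this was Atp5d at 11.80 (nearest other array 11.91), Ndufaf4 at 8.98 (9.65). On the 6 h array of replicate 2 this was Cox4i2 at 5.28 (nearest other array 5.04). On the 8 d array of replicate 4 this was Cox5b at 11.68 (nearest other array 11.76). On the 4 d array of replicate 3 this was Cox6a2 at 5.94 (nearest other array 5.66). On the 12 h array of replicate 1 this was Cox7a2 at 12.30 (nearest other array 12.17). On the 4 d array of replicate 1 this was Cox7a2 at 12.50 (nearest other array 12.29). On the 1 d array of replicate 3 this was Atp5c1 at 11.57 (nearest other array 11.66). On the 1 d array of replicate 5 this was the mean of the complex I genes against 1 h at -0.20 (nearest other array -0.30). Of these, 8 d replicate 2 read low for genes of complexes I, IV and V, and without it 3 members were called at 8 d against control in place of 1.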

How the results depend on the processing

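Of 86 members against 1 h or 16 d and 45 against control, the number called was 0 at 1 h against control, 0 at 6 h against control, 8 at 12 h against control, 20 at 1 d against control, 6 at 2 d against control, 3 at 4 d against control, 0 at 6 d against control, 1 at 8 d against control, 0 at 16 d against control, 14 at 12 h against 1 h, 31 at 1 d against 1 h, 12 at 2 d against 1 h, 0 at 16 d against 1 h, 9 at 2 d against 16 d. Without dim genes it was 2 at 8 d against control. With array weights it was 14 at 2 d against control, 5 at 4 d against control, 2 at 6 d against control, 7 at 8 d against control, 1 at 16 d against control, 33 at 12 h against 1 h, 51 at 1 d against 1 h, 27 at 2 d against 1 h, 3 at 16 d against 1 h, 28 at 2 d against 16 d. Centred on the array median it was 13 at 12 h against control, 33 at 1 d against control, 34 at 2 d against control, 8 at 12 h against 1 h, 35 at 2 d against 1 h, 27 at 2 d against 16 d. Centred on ribosomal protein genes it was 26 at 12 h against control, 42 at 1 d against control, 35 at 2 d against control, 2 at 8 d against control, 74 at 12 h against 1 h, 82 at 1 d against 1 h, 75 at 2 d against 1 h, 74 at 2 d against 16 d. With quantile normalization it was 14 at 12 h against control, 12 at 2 d against control, 4 at 8 d against control, 28 at 12 h against 1 h, 22 at 2 d against 1 h, 1 at 16 d against 1 h, 18 at 2 d against 16 d. Without the 3 narrow arrays (chosen after seeing the data) it was 1 at 6 h against control, 15 at 12 h against control, 15 at 2 d against control, 38 at 12 h against 1 h, 47 at 1 d against 1 h, 23 at 2 d against 1 h, 16 at 2 d against 16 d. With the compared groups alone it was 1 at 12 h against control, 6 at 1 d against control, 0 at 2 d against control, 0 at 8 d against control, 3 at 12 h against 1 h, 3 at 2 d against 16 d. With every probe set counted it was 25 at 12 h against 1 h, 60 at 1 d against 1 h, 27 at 2 d against 1 h, 15 at 2 d against 16 d. Centred on the array median, the medians that moved were IV -0.30, V -0.36 at 1 d against control, I -0.36, IV -0.36, V -0.32 at 2 d against control, IV -0.074 at 4 d against control, IV -0.017 at 6 d against control, I -0.23, III -0.23, IV -0.25, V -0.23 at 2 d against 1 h, III -0.20, IV -0.18, V -0.17 at 2 d against 16 d by complex. Centred on ribosomal protein genes, the medians that moved were I -0.28, IV -0.26, V -0.26 at 12 h against control, I -0.58, IV -0.47, V -0.54 at 1 d against control, I -0.36, IV -0.36, V -0.32 at 2 d against control, I -0.46, III -0.40, IV -0.36, V -0.37 at 12 h against 1 h, I -0.72, III -0.57, IV -0.57, V -0.61 at 1 d against 1 h, I -0.47, III -0.47, IV -0.49, V -0.47 at 2 d against 1 h, I -0.46, III -0.43, IV -0.41, V -0.39 at 2 d against 16 d by complex. Leaving out each array in turn, the number called ran from 5 to 29 at 12 h against 1 h, 4 to 13 at 12 h against control, 26 to 42 at 1 d against 1 h, 13 to 28 at 1 d against control, 3 to 11 at 2 d against 16 d, 7 to 18 at 2 d against 1 h, 2 to 11 at 2 d against control, 2 to 3 at 4 d against control, 1 to 6 at 8 d against control. The replicate numbers were not taken to pair the arrays, since the labels name nothing shared. Same-numbered arrays were still somewhat more alike than others. Their correlation was over 0.1 in 83 of 216 pairs of all arrays and 27 of 50 pairs of the complete ones. Its median was 0.06 and 0.124, beside -0.014 and 0.001 for arrays of unlike number. Replicates 2 and 3 had the lowest array means in control and at 12 h, 1 d, 2 d and 4 d. With the number as a replicate block 3 members were called at 8 d against control, and the calls of Ndufa9 and Cox5a at 2 d against 16 d were lost (adjusted p = 0.0521 and 0.0566). Of 66 named calls 40 held with each array left out and 33 with the compared groups alone. The calls over all genes moved with the centrings too. At 12 h against control they were 688 higher and 731 lower on the deposited scale. Centred on the array median they were 632 and 991, and on ribosomal protein genes 515 and 1577. With quantile normalization they were 754 and 1020. At 2 d against control that setting gave 1013 higher and 1463 lower, in place of 1189 and 759. For array weights, without the narrow arrays and with the compared groups alone, the calls over all genes are not given here. Those member counts therefore stand without a share of all genes. The cause of these changes was not tested. The standard error at 1 d against control was 0.08 for Ndufa9 and 0.31 for the dim probe set of Ndufs4.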
